A study of Mus musculus with 10 samples.

Results

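The vascular endothelial growth factor (VEGF) system was examined in hearts of mice lacking HIPK2, homeodomain-interacting protein kinase 2, a nuclear serine/threonine kinase. The members were the 5 ligand genes Vegfa, Vegfb, Vegfc, Figf (the gene of VEGF-D) and Pgf, the 3 receptor tyrosine kinase genes Kdr, Flt1 and Flt4, and the coreceptor genes Nrp1 and Nrp2. The choice of members was made with earlier results of these data known. They were chosen by name, as every array probe that is not a control and whose gene name in the array files is a member. This gave 10 genes of 37074 gene names on the array, with 29 of 56605 probes. Cardiac tissue came from male mice of 2 groups, 5 samples of HIPK2 knockout (HIPK2-/-, on C57BL/6) and 5 samples of C57BL/6 wild type. The knockout was made by injecting embryos with CRISPR reagents directed at exon 2 of Hipk2, and a frameshifting deletion of 56 bases was crossed to wild-type C57BL/6 mice to expand the colony. The labels give no cell type restriction, no age and no chamber of the heart, and describe 1 deletion allele. They number the replicates and do not state which mice these were, so p-values below measure only the spread between these samples.

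VEGF ligands are secreted dimers that bind receptor tyrosine kinases on endothelial cells. VEGF-A signals for vessel growth and permeability mainly through VEGFR2, the product of Kdr, while VEGFR1, the product of Flt1, binds VEGF-A tightly with weak kinase output and is also made as a soluble decoy. PlGF and VEGF-B bind VEGFR1, VEGF-C and VEGF-D act mainly through VEGFR3, the product of Flt4, on lymphatic endothelium, and the neuropilins bind heparin-binding forms of the ligands beside the receptors. In the heart, cardiomyocytes are a main source of VEGF-A and VEGF-B, and the capillary endothelium that lies beside them carries the receptors.

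Sequences of 3 member probes are given first, because these probes separate parts or forms of the ligands and carry a called neuropilin difference described below. They are 60-base oligonucleotides on the RNA strand, as the array files hold them, and positions are those of the files on mouse build mm9. The Vegfa basic-stretch probe (chr17:46159226-46159282) covers a heparin-binding part of the longest VEGF-A forms. Capitals mark codons for lysine or arginine, 10 of 19 complete codons in its reading frame. The Vegfc core probe (chr8:55244696-55244755) lies in the coding sequence of the cysteine-rich growth factor core and is written without capitals. So is the Nrp2 probe (chr1:62818403-62829910, so across a splice junction).
Vegfa basic-stretch probe: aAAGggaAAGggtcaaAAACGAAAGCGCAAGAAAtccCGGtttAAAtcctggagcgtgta
Vegfc core probe: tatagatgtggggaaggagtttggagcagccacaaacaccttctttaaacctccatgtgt
Nrp2 junction probe: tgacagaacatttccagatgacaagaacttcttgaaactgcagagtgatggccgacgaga

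The sequence just before the start of transcription is shown for Kdr, Vegfa and Pgf, the 3 genes with a called probe well above background on every array. Each is 250 bases from RefSeq on build GRCm38.p6, on the strand of the gene, with every GGGCGG or its reverse complement CCGCCC in capitals, the GC-box letters that the SP1 factor family binds. The Kdr window is chr5:75978456-75978705, with 2 matches and 61.6% G and C. The Vegfa window is chr17:46032378-46032627, with 2 matches and 59.2% G and C, and the Pgf window is chr12:85177314-85177563, with 2 matches and 68.4% G and C. All 10 members matched the promoter table, with 12 windows, and 10 of those windows in 9 genes held the GC-box letters, the exceptions being Figf and the second Pgf window. Of all 32851 windows of the same length 32.7% held them, and the median G and C content was 52.4%, so the member windows, at 42.4% to 76.4%, were mostly richer in G and C. The hypoxia-response core ACGTG or GCGTG, searched on both strands, was in 7 of the 12 windows and in 38.6% of all windows. These counts describe letters in the windows and no binding was measured.
Kdr promoter: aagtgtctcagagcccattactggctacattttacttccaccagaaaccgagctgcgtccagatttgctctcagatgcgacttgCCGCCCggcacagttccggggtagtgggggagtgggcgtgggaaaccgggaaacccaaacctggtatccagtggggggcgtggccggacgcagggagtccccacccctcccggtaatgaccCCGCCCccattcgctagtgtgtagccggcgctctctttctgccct
Vegfa promoter: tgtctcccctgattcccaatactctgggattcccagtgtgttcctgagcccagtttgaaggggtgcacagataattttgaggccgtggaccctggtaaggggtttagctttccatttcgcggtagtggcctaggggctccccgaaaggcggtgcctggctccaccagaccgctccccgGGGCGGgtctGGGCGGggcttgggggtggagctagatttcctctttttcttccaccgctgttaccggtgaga
Pgf promoter: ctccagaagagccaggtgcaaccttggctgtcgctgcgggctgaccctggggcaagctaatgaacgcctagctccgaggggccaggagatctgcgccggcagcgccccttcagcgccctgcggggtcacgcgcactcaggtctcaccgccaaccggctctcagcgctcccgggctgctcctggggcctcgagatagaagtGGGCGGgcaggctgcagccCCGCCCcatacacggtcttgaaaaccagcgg

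Each sample was hybridised to its own 1-colour Agilent array, and signals are given as log2 of the processed intensity minus the log2 of the array's 75th percentile, so that 0 is the level of a fairly bright probe of that array. Levels of different probes are not set against each other, because probes differ in how well they hybridise. The 75th percentile of intensity was 378 ± 75.3 for knockout hearts and 499.5 ± 31.9 for wild-type hearts (SD, n = 5 each), with no overlap between genotypes (exact permutation test, two-sided, adjusted p = 0.037 over 7 array measures). Well above background were 51.9% ± 5.36 of spots for knockout hearts and 58.6% ± 1.80 for wild-type hearts (SD, n = 5 each; same exact test, adjusted p = 0.0463). Wild-type replicates 1 and 2 were on 1 slide and the other 8 arrays on a second slide, per the file headers. On that slide all 3 wild-type arrays and 1 knockout array lay in 1 row, and the other 4 knockout arrays in the second row. All 6 cardiomyocyte markers and all 12 endothelial markers examined were well above background on all 10 arrays. The 3 Hipk2 probes gave log2 fold changes of -0.01 to 0.11 (limma adjusted p of 0.473 or more). None of them shares a 20-base run with the deleted sequence, so they do not check the deletion.

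The members were chosen with earlier results of these data known, so the shares below are not independent support. Tested probes were those that the scanner software marked as well above background in 4 or more samples of a genotype. Of the 29 member probes 27 were tested, in all 10 genes, and 22 of these had that mark in every sample. Of these 27 probes 5, or 18.5%, passed an adjusted p of 0.05, all lower in knockout, in Kdr, Vegfa, Pgf, Nrp1 and Nrp2, where 4.44% of all 30693 tested probes passed, 2.76% lower and 1.69% higher in knockout. The called Nrp1 and Nrp2 probes were well above background in 3 knockout hearts each and so were tested only through wild type, where they were higher. Among probes well above background on all 10 arrays, adjusted over these alone, 4 of 22 member probes passed as lower, the called Kdr, Pgf and Vegfa probes and a second Vegfa probe, where 6.62% of all 23316 such probes passed and 3.34% passed lower. For the 5 calls, and for limma results elsewhere unless stated otherwise, the adjustment runs over all 30693 probes. At an unadjusted p under 0.05 there were 16 of the 27 member probes, where 26.1% of all probes passed. The genotypes were separate without overlap in 8 member probes, with knockout lower in 7 and higher in 1, against 4.41% and 4.09% of all tested probes. Those 7 include the called Nrp1 and Nrp2 probes. The log2 fold change was below 0 in 20 of 27 member probes, against 48.9% of all tested probes, with a median of -0.28 against 0.01. Probes of 1 gene are not separate members, and by gene, with the brightest tested probe, 7 of 10 were below 0 against 45.9% of all genes. With the brightest tested probe of each gene, 2 of 10 members passed, Kdr and Pgf, both lower, where 4.49% of 20607 genes passed, 2.72% lower and 1.77% higher in knockout. Member counts moved with the scaling: 10 probes were lower and 2 higher with normexp background correction, where calls over all probes also split differently, 1094 lower and 3423 higher against 846 lower and 518 higher. This correction started from the mean spot signal and the median background in place of the processed intensity. It added an offset of 50 to every spot before scaling, which weighs most on dim probes and on the dimmer knockout arrays. Of all tested probes 34.5% were below 0 with it. So normexp values of dim probes below do not settle a difference in either direction.

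**Figure D1:**
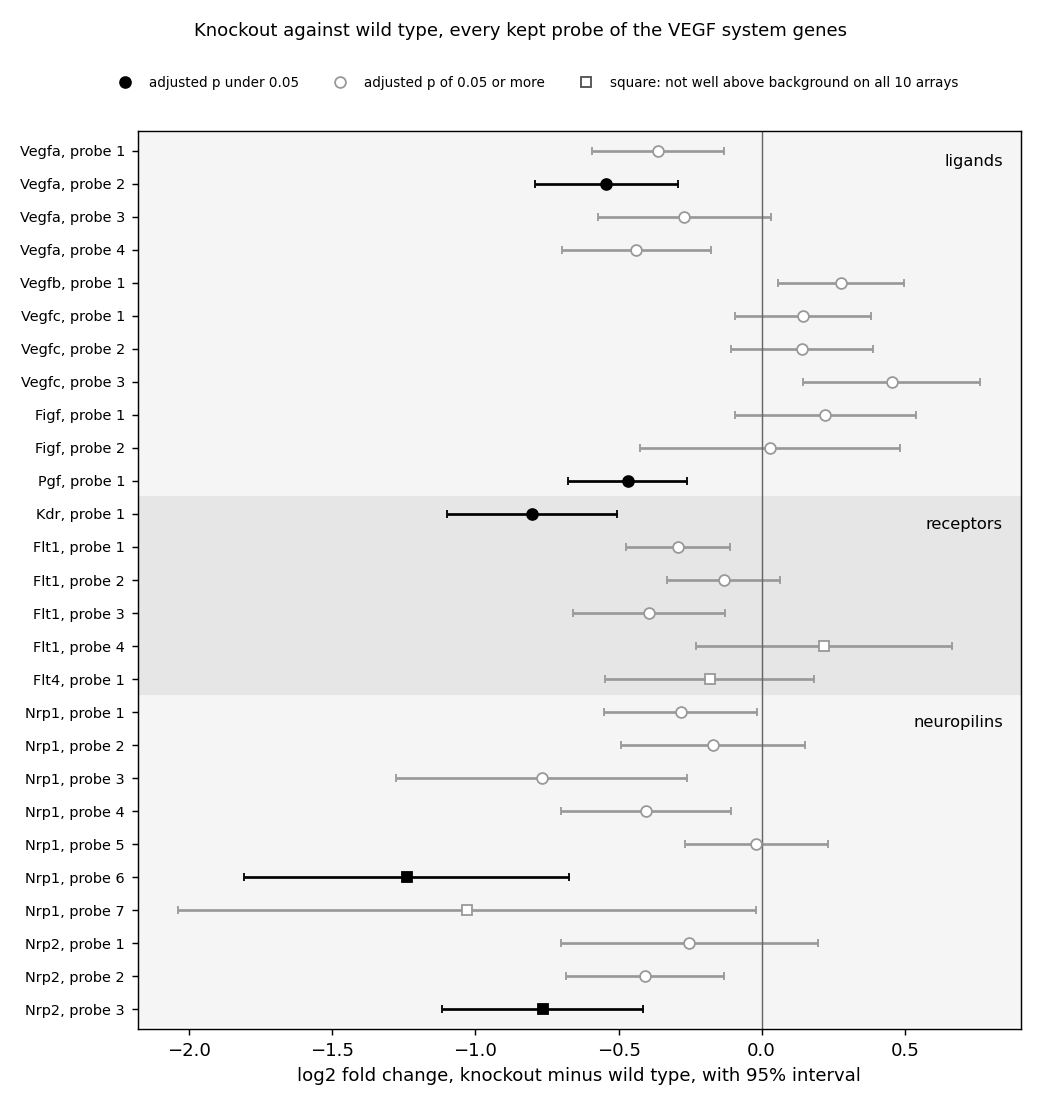
Log2 fold change, knockout minus wild type, of the 27 tested probes of the VEGF system genes (x axis) with 95% intervals, 1 row per probe, grouped into ligands, receptors and neuropilins and ordered by brightness within a gene. Filled symbols passed an adjusted p of 0.05 and squares mark probes not well above background on all 10 arrays; the 5 filled symbols lie left of 0, and the Vegfb, Vegfc and Figf probes lie right of it.

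Vegfa encodes the main angiogenic ligand of the system, and all 4 of its probes were below 0. The called probe (chr17:46155512-46155571) read 2.49, 2.50, 2.84, 2.70 and 2.41 in knockout hearts, against 2.96, 2.97, 3.17, 3.36 and 3.20 in wild-type hearts. The groups did not overlap, with knockout replicate 3 the closest to the wild-type range. The level was 1.46-fold lower in knockout (log2 fold change -0.54 ± 0.11 SE, limma adjusted p = 0.0301). The brightest Vegfa probe (chr17:46154387-46154446) read 3.86, 3.94, 3.94, 4.16 and 3.68 in knockout hearts, against 4.09, 4.24, 4.26, 4.41 and 4.38 in wild-type hearts. Only knockout replicate 4 reached into the wild-type range, and the difference of -0.36 ± 0.10 did not pass (adjusted p = 0.0714). It passed with normexp correction (-0.42, adjusted p = 0.0182) and with quantile normalization (-0.38, adjusted p = 0.0424).

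The basic-stretch probe, whose sequence is in the longest VEGF-A forms and not in the shorter ones, read -0.95, -0.88, -0.78, -0.65 and -0.99 in knockout hearts, against -0.66, -0.60, -0.16, -0.22 and -0.41 in wild-type hearts. Knockout replicate 4 again met the lowest wild-type values, and the difference was -0.44 ± 0.12 (adjusted p = 0.061). It passed among probes well above background on all 10 arrays (adjusted p = 0.0443), with slide as a block (-0.58, adjusted p = 0.0268) and with normexp correction (-0.35, adjusted p = 0.0347). The core probe is shared by the VEGF-A forms and differed by -0.27 ± 0.14 (95% interval -0.57 to 0.03, adjusted p = 0.235), with overlapping groups. The intervals of all 4 Vegfa probes overlap, and a difference between forms was not tested. The called Vegfa probe kept its call with slide as a block (-0.66, adjusted p = 0.0241) and among the 8 arrays of slide 2 (-0.66, adjusted p = 0.0403), and lost it with slide and array row as blocks (-0.76, adjusted p = 0.19). It missed the threshold in 7 of the 10 fits that leave out 1 array: without knockout replicates 1, 2 or 5 (adjusted p = 0.0621, 0.0684 and 0.0512) and without wild-type replicates 2, 3, 4 or 5 (0.051, 0.0529, 0.0697 and 0.0723).

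Pgf encodes placental growth factor, a ligand of VEGFR1 that is low in the resting heart. Its single probe (chr12:86508335-86510337, across a splice junction) read -1.42, -1.32, -1.40, -1.59 and -1.23 in knockout hearts. In wild-type hearts it read -0.94, -0.89, -0.87, -1.12 and -0.81. No knockout array reached the lowest wild-type array, replicate 4. The level was 1.38-fold lower in knockout (-0.47 ± 0.09, adjusted p = 0.0263). The size stayed near this with slide as a block and within slide 2 (-0.46 in both), where the call was lost (adjusted p = 0.0547 and 0.0842), as it was with slide and array row as blocks (-0.49, adjusted p = 0.33). It was lost too without knockout replicates 1, 2 or 4 (adjusted p = 0.0541, 0.0524 and 0.0512) and without wild-type replicates 2 or 5 (0.0613 and 0.0663), and normexp correction gave a smaller value that passed (-0.31, adjusted p = 0.0269).

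The other ligands gave values above 0 and none passed. Vegfb, a VEGFR1 ligand abundant in heart muscle, read 5.22, 5.39, 5.34, 5.47 and 5.11 in knockout hearts, against 5.01, 4.84, 5.22, 5.07 and 5.00 in wild-type hearts (chr19:7057245-7057304). The groups overlapped through wild-type replicate 3, and the difference was 0.28 ± 0.10 (adjusted p = 0.117). For Vegfc, a lymphangiogenic ligand, the core probe printed above read -2.98, -2.85, -2.87, -3.05 and -2.70 in knockout hearts, against -3.83, -3.36, -3.32, -3.11 and -3.10 in wild-type hearts. This was the 1 member probe with every knockout array above every wild-type array, and its difference of 0.46 ± 0.14 did not pass (adjusted p = 0.0835). It passed with normexp correction (0.42, adjusted p = 0.0125), whose offset weighs most on dim probes such as this one. The other Vegfc probes, the brightest at chr8:55271533-55271592 and a splice-form probe at chr8:55163262-55271349, each differed by 0.14 ± 0.11 (adjusted p = 0.417 and 0.45). Figf, the VEGF-D gene, gave 0.22 ± 0.14 (adjusted p = 0.345) at chrX:160840395-160840454, and a dimmer probe at chrX:160832499-160833909 gave 0.03 ± 0.21 (adjusted p = 0.944).

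**Figure D2:**
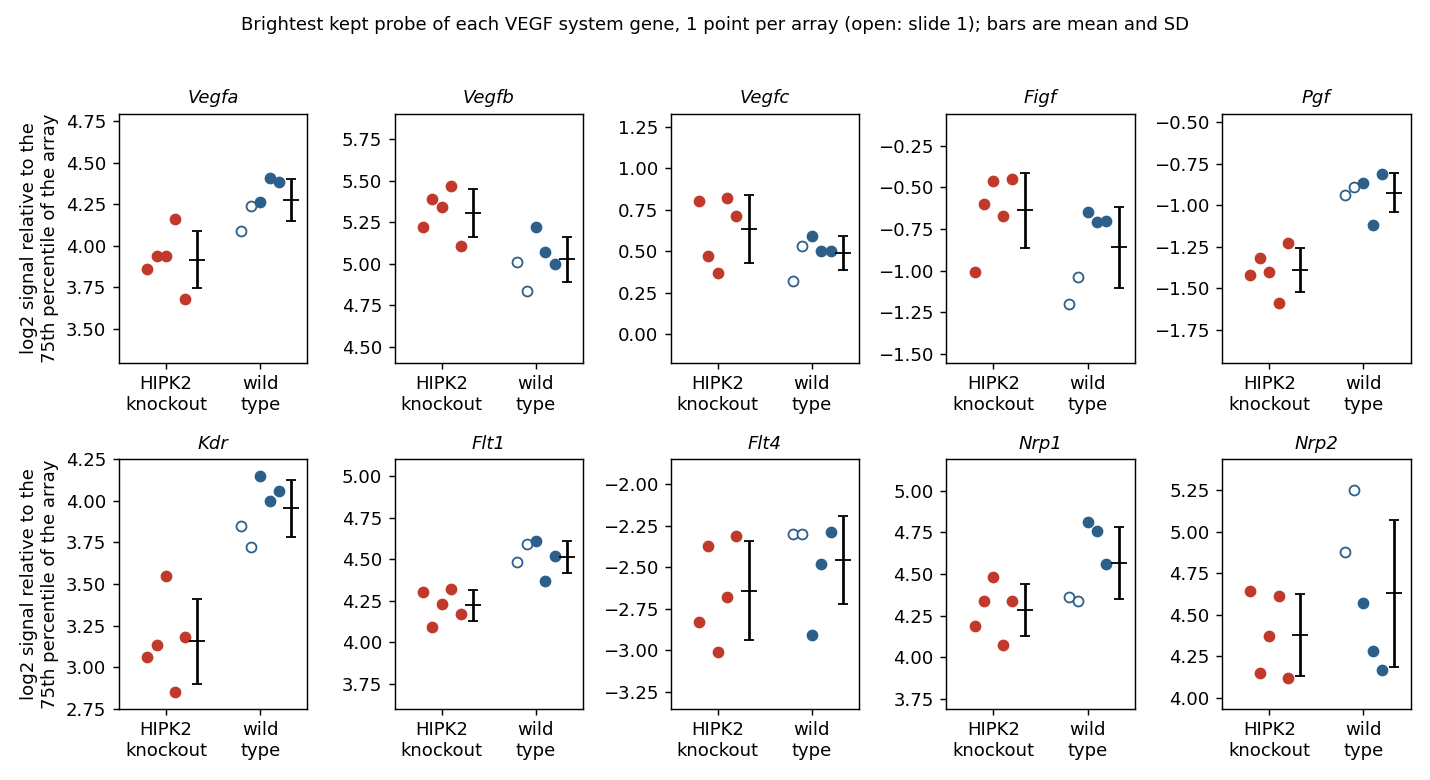
Log2 signal relative to the array's 75th percentile (y axis) on each of the 5 knockout and 5 wild-type arrays, for the brightest tested probe of each gene, with mean and SD as bars and the 2 wild-type arrays of slide 1 as open points. The knockout points of Kdr, Pgf and Flt1 all lie below the wild-type points, and the groups overlap for the other 7 genes.

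Kdr encodes VEGFR2, the main signalling receptor of blood vessel endothelium, and had the smallest adjusted p of the members. The probe at chr5:76329309-76329368 read 3.06, 3.13, 3.55, 2.85 and 3.18 in knockout hearts, against 3.85, 3.72, 4.15, 4.00 and 4.06 in wild-type hearts. The groups did not overlap, and the highest knockout value came from replicate 3, the array with the lowest 75th percentile of intensity (286). The level was 1.74-fold lower in knockout (-0.80 ± 0.13, 95% interval -1.10 to -0.50, adjusted p = 0.0161). The call held in all 10 fits that leave out 1 array, with adjusted p of 0.0107 to 0.0487 and differences of -0.90 to -0.73. It held with slide as a block (-0.92, adjusted p = 0.0187), within slide 2 (-0.92, adjusted p = 0.0317) and with normexp correction (-0.85, adjusted p = 0.00235), and was lost when dim probes were not filtered out and 56605 probes were tested (adjusted p = 0.0591).

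The other Kdr probes were not measurable. The probe annotated as soluble VEGF receptor 2 (chr5:76353385-76353444) was well above background on 0 knockout arrays and 0 wild-type arrays, and the probe of another transcript (chr5:76357639-76357698) on 1 knockout array and 0 wild-type arrays, so neither was tested. Flt1 encodes VEGFR1, and its brightest probe (chr5:148373791-148373850) read 4.30, 4.09, 4.23, 4.32 and 4.17 in knockout hearts. In wild-type hearts it read 4.48, 4.59, 4.61, 4.37 and 4.52. No knockout array reached the wild-type range, but the difference was small, -0.29 ± 0.08, and did not pass (adjusted p = 0.0691). It passed with normexp correction (-0.34, adjusted p = 0.0212) and with quantile normalization (-0.33, adjusted p = 0.039). Of 2 probes placed by the files on another Flt1 transcript, the dimmer (chr5:148450688-148450747) gave -0.39 ± 0.12 (adjusted p = 0.0816), also without overlap, and the brighter (chr5:148448888-148448947) gave -0.13 ± 0.09 (adjusted p = 0.365). A probe from a placenta cDNA (chr5:148465976-148466035), well above background on 2 knockout and 4 wild-type arrays, gave 0.22 ± 0.20 (adjusted p = 0.519), and 0.34 with normexp correction (adjusted p = 0.0425). At this level the second value carries the offset and the other starting signal of that correction, and their parts were not tested. Flt4, the receptor of lymphatic endothelium, was dim (chr11:49465646-49465705) and gave -0.18 ± 0.17 (95% interval -0.55 to 0.18, adjusted p = 0.512), and its sign turned with normexp correction (0.09).

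Nrp1, a coreceptor for heparin-binding forms of VEGF-A and for semaphorins, had 7 tested probes, all below 0 as scaled here. Relative to the endothelial markers described below, 2 of the 7 were above 0 (0.21 and 0.06), and with normexp correction 1 was (0.04). The brightest probe (chr8:131027137-131027196) read 4.19, 4.34, 4.48, 4.07 and 4.34 in knockout hearts, against 4.36, 4.34, 4.81, 4.76 and 4.56 in wild-type hearts. These overlapped, and the difference of -0.28 ± 0.12 did not pass (adjusted p = 0.171). The called probe (chr8:130952310-130952369), annotated from an embryonic cDNA, read -4.31, -3.52, -3.90, -4.83 and -3.68 in knockout hearts, against -3.20, -2.97, -2.49, -3.05 and -2.32 in wild-type hearts. This probe was well above background in 3 knockout and all 5 wild-type hearts, so its fitted difference of -1.24 ± 0.26 (adjusted p = 0.0291) rests partly on knockout values near background and gives no exact size. With normexp correction the difference was -0.27 and did not pass (adjusted p = 0.108). The knockout arrays were the dimmer ones throughout, as given above, and the part of this in the value was not tested. The call was lost within slide 2 (-1.43, adjusted p = 0.0554) and with slide and array row as blocks (-1.69, adjusted p = 0.234), and held with slide as a block (-1.43, adjusted p = 0.0359). It was lost when knockout replicate 1 was left out (adjusted p = 0.0609) or wild-type replicates 2, 3, 4 or 5 were (0.0583, 0.0539, 0.0562 and 0.0663).

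The other Nrp1 probes ranged widely. A spleen cDNA probe (chr8:130889083-130889142) gave -0.77 ± 0.23 (adjusted p = 0.0779), a second embryonic probe (chr8:130985912-130985971) -1.03 ± 0.46 (adjusted p = 0.185), and a thymus probe (chr8:130884009-130884068) -0.02 ± 0.11 (adjusted p = 0.935). Both further probes of the annotated RefSeq mRNA, at chr8:130992273-130992332 and chr8:131028306-131028365, gave -0.40 ± 0.14 and -0.17 ± 0.15 (adjusted p = 0.101 and 0.488). The probes of this gene therefore differ more among themselves than their standard errors, from -1.24 to -0.02.

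Nrp2, the coreceptor for VEGF-C and VEGF-D on lymphatic and venous endothelium, had 3 tested probes. The junction probe printed above, annotated to transcript variant 6, read -3.70, -3.56, -4.17, -4.20 and -3.58 in knockout hearts, against -3.28, -3.00, -2.84, -3.31 and -2.95 in wild-type hearts. The groups did not overlap, but the probe was well above background in only 3 of the 5 knockout hearts. Its fitted difference of -0.77 ± 0.16 (adjusted p = 0.0292) therefore gives no exact size, and with normexp correction it was -0.07 (adjusted p = 0.595). Slide as a block gave -0.81 (adjusted p = 0.0536), slide 2 alone -0.81 (adjusted p = 0.0733), and slide and array row as blocks -0.66 (adjusted p = 0.422). The call was also lost without knockout replicate 4 (adjusted p = 0.0556) and without wild-type replicates 2, 3, 4 or 5 (0.0688, 0.0535, 0.0511 and 0.0692). The variant 1 probe (chr1:62865129-62865188), bright on every array, read 2.22, 2.19, 2.42, 2.14 and 2.42 in knockout hearts, against 2.51, 2.37, 2.71, 2.95 and 2.88 in wild-type hearts. Only wild-type replicate 2 fell within the knockout range, and the difference was -0.41 ± 0.13 (adjusted p = 0.083). It passed with slide as a block (-0.57, adjusted p = 0.0282) and with normexp correction (-0.41, adjusted p = 0.0425).

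The brightest Nrp2 probe (chr1:62843061-62843120, variant 5) read 4.64, 4.15, 4.37, 4.61 and 4.12 in knockout hearts, against 4.88, 5.25, 4.57, 4.28 and 4.17 in wild-type hearts. The groups overlapped, and the difference was -0.25 ± 0.20 (adjusted p = 0.453). This probe holds a run of 14 GT units. Across the 10 arrays, after subtracting each genotype's mean, it followed the variant 1 probe of the same gene with a Pearson r of -0.87, and the junction probe with r = -0.21. The 3 other named genes most like it were Arl6ip6 (r = 0.999), Tmem239 (r = 0.997) and Zcchc9 (r = 0.996), among 14180 named genes. Their probes hold runs of 15, 15 and 20 GT or CA units. Of 79 other tested probes with a run of at least 10 GT or CA units, 35 had r above 0.9 with the brightest Nrp2 probe, against 41 of 30597 probes without such a run. Over the 79 probes r ran from -0.89 to 0.999, with a median of 0.76, against a median of -0.04 without a run. These correlations describe 10 arrays of shared depth and carry no test. No other member probe holds such a run, and the 79 probes had log2 fold changes of -0.30 to 0.70 with none called.

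**Figure D3:**
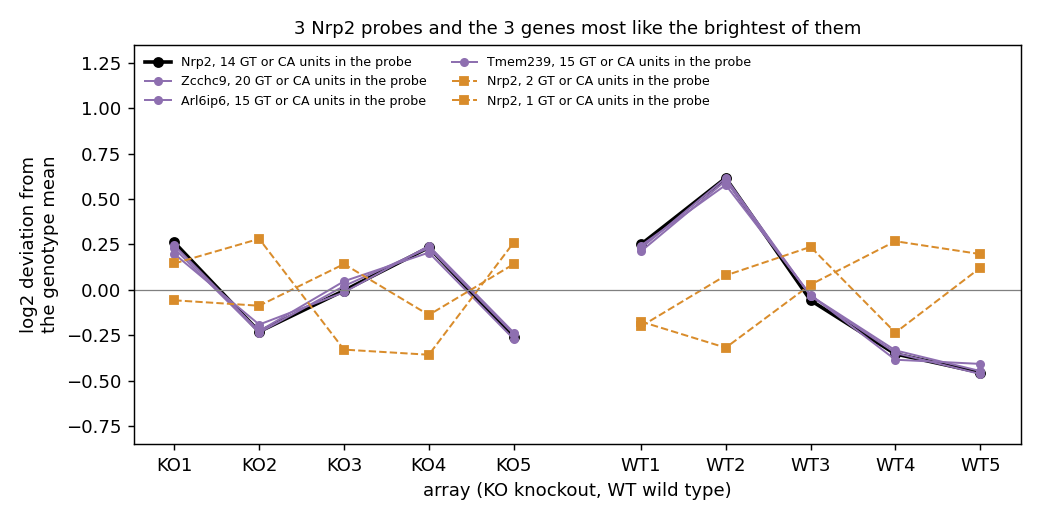
Deviation of log2 signal from the mean of the genotype (y axis) on each knockout and wild-type array (x axis) for the 3 Nrp2 probes and for the probes of Arl6ip6, Tmem239 and Zcchc9. The brightest Nrp2 probe (black) and the 3 other probes with GT or CA runs (purple) lie almost on each other, with the highest point on wild-type replicate 2, while the Nrp2 probes without a run (orange, dashed) take another course.

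The genes most alike, by the same measure and with 10 arrays, were Slc25a53, Prag1 and Rasgrp3 for Kdr (r = 0.976, 0.966 and 0.952). They were Prss35, Hacl1 and Oxct1 for Flt1 (0.90, 0.896 and 0.889), Tox4, Bysl and Mgat5 for Vegfa (0.957, 0.919 and 0.908), and Rps4l, Hunk and Colgalt2 for Pgf (0.925, 0.912 and 0.90). For Nrp1 they were Cd300a, Ddx5 and Renbp (0.964, 0.949 and 0.944). None of these genes passed the test between genotypes, with adjusted p of 0.151 or more. Such r values are the highest among 14180 named genes over 10 arrays, where high values also arise by chance, and they carry no test. The brightest tested probe stood for each member, which for Vegfa and Nrp1 is not the called probe.

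The receptors are made mainly by endothelium, so the endothelial markers were set beside them. This list and the other marker lists below were chosen with earlier results of these data known. Tests on their means are therefore not independent support. All 12 markers were below 0, with a median of -0.22, and also with normexp correction (-0.27), with quantile normalization (-0.25) and within slide 2 (-0.32). Of them 1 passed: Emcn, a sialomucin of capillary and venous endothelium, was lower in knockout (-0.41 ± 0.10, adjusted p = 0.0466). That call was lost in all 10 fits that leave out 1 array (adjusted p of 0.0521 to 0.104), with quantile normalization (0.0551) and within slide 2 (-0.39, adjusted p = 0.125). The adhesion genes Cdh5 and Pecam1 gave -0.26 ± 0.09 and -0.13 ± 0.08 (adjusted p = 0.101 and 0.314), and the receptor genes Tek and Tie1 gave -0.17 ± 0.12 and -0.10 ± 0.15. The mean log2 signal of the 12 markers was 2.31, 2.42, 2.47, 2.41 and 2.50 in knockout hearts, against 2.58, 2.50, 2.81, 2.65 and 2.70 in wild-type hearts. These means differed (exact permutation test, two-sided, p = 0.0159, adjusted p = 0.037 over 7 array measures), with wild-type replicate 2 within the knockout range. Within slide 2 the difference was -0.30, without overlap (exact test, p = 0.0179, adjusted p = 0.0625). That p is the smallest that 5 against 3 arrays allow, so the adjusted value there is limited by the number of arrays. When 1 array was left out the difference was -0.26 to -0.18, with adjusted p of 0.0278 to 0.0926. The adjusted p was above 0.05 without knockout replicates 3 or 4 and without wild-type replicates 2, 3, 4 or 5, and there none of the 7 array measures passed. In whole tissue, fewer endothelial cells and less RNA of these genes per cell cannot be told apart.

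Measured relative to that marker mean, array by array, Kdr remained lower (-0.58 ± 0.12, limma adjusted p = 0.0104). This scale, chosen after seeing the data, is 1 way to ask whether Kdr differed more than the markers did. The same scale moved the median of all probes to 0.23, so that 7130 of 30693 passed as higher and 461 as lower. On it the brightest Flt1 probe gave -0.07 (adjusted p = 0.671), Pgf -0.24 (adjusted p = 0.112), the called Vegfa probe -0.32 (adjusted p = 0.065), Vegfb 0.50 (adjusted p = 0.0102), the Vegfc core probe 0.68 (adjusted p = 0.00938) and the brightest Figf probe 0.45 (adjusted p = 0.0208). With the marker mean as a covariate in place of a scale, Kdr gave -0.47 and did not pass (adjusted p = 0.17), and 4 of all 30693 probes did. Means of other cells' markers are given beside these, and the first 3 also missed the threshold within slide 2 (exact tests, adjusted p = 0.0625 to 0.0714). The mean of 6 pericyte markers lay between 2.58 and 3.09 in knockout hearts, against 3.03 to 3.31 in wild-type hearts (exact permutation test, adjusted p = 0.0463). The mean of 9 macrophage markers lay between 1.43 and 1.97 in knockout hearts, against 1.94 to 2.21 in wild-type hearts (exact test, adjusted p = 0.037). The mean of 4 fat markers lay between -5.04 and -2.96 in knockout hearts, against -4.17 to 0.29 in wild-type hearts (exact test, adjusted p = 0.0463). Of these 4 genes 0 were well above background on all 10 arrays. Car3 was so on 2 knockout and 5 wild-type arrays and was kept only through wild type, so this mean rests partly on values near background. Without wild-type replicate 2 the difference was -1.25 (exact test, adjusted p = 0.0926). For 3 atrial markers the mean ranged from -2.75 to 1.56 in knockout hearts, against -3.02 to 4.81 in wild-type hearts (exact test, adjusted p = 0.127) with a wide spread within each genotype. The mean of 6 cardiomyocyte markers, not among the measures tested, was higher, between 8.43 and 8.97 in knockout hearts against 7.88 to 8.49 in wild-type hearts. The median difference of these 6 genes was 0.56, and 0.08 with quantile normalization. With the macrophage mean as a covariate Kdr gave -0.64 (adjusted p = 0.22), with the fat mean -0.78 (0.151), with the atrial mean -0.79 (0.0768), and with slide and array row as blocks -1.01 (0.18). In each of these 4 fits no member probe passed, where 0, 1, 78 and 0 of all 30693 probes did, in the order given.

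**Figure D4:**
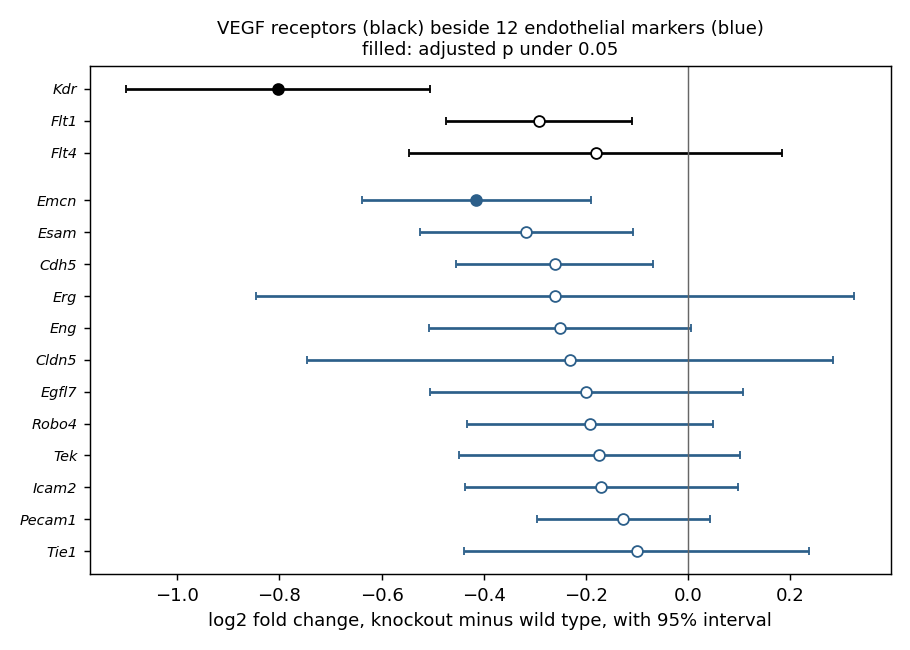
Log2 fold change, knockout minus wild type, with 95% intervals (x axis), for the brightest probe of the receptor genes Kdr, Flt1 and Flt4 (black) and of 12 endothelial markers (blue), filled where the adjusted p is under 0.05. All lie below 0, the markers between -0.41 and -0.10 and Kdr at -0.80.

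Genes that act with the members were read from lists, each gene by its brightest tested probe. The lists were chosen with earlier results of these data known, so their shares of calls are not independent support. Among genes known to rise in VEGF-treated endothelium, the median was -0.41, against 0.03 for all genes with 1 probe each. Of 19 measured, 4 were lower in knockout and 0 higher, where 2.72% of all 20607 genes were lower and 1.77% higher. These background shares apply to each list below, beside 26.8% of all genes at an unadjusted p under 0.05 and 45.9% below 0. Of the 4, Egr3 was tested only through wild type. Of the 16 listed genes well above background on all 10 arrays, 6 were lower when adjusted over such probes alone. With normexp correction 7 were lower (median -0.22), within slide 2 there were 5, and 2 to 4 passed when 1 array was left out. With the endothelial, macrophage or fat mean as a covariate 0 of the 19 passed, where 4, 0 and 1 of all 30693 probes did. Plaur, the urokinase receptor, read -1.54, -1.06, -1.44, -1.19 and -1.37 in knockout hearts, against -0.37, -0.79, -0.24, 0.03 and 0.13 in wild-type hearts. The groups did not overlap, and it was 2.11-fold lower (-1.07 ± 0.17, adjusted p = 0.0135), a call that held without any 1 array. Pdgfb, the ligand by which endothelium recruits pericytes, was 1.46-fold lower (-0.54 ± 0.11, adjusted p = 0.0296), a call kept in 5 of the 10 fits that leave out 1 array (adjusted p up to 0.072, at wild-type replicate 5). The immediate early gene Egr1 was 2.51-fold lower (-1.33 ± 0.31, adjusted p = 0.0416), and kept its call in 3 of those 10 fits (adjusted p up to 0.085, at knockout replicate 2). Egr3, of the same family, was well above background in 5 wild-type hearts and in 0 knockout hearts. Set against the dimmest signal that counted as well above background on each knockout array, its wild-type mean gave a difference of at least 1.15-fold, lower in knockout (limma adjusted p = 0.0066 on the measured values), and it did not pass with normexp correction (-0.17, adjusted p = 0.359). Immediate early genes answer many signals besides VEGF, and other cells than endothelium express all 4 genes.

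The signalling chain below the receptors showed no call. Of 46 measured genes, from Plcg1 and Src to the MAP kinases, Akt and Nos3, 0 passed in limma, 9 at an unadjusted p under 0.05 (28 were below 0, median -0.04), while 4 were lower and 1 higher with normexp correction and 3 lower with quantile normalization. The lowest p values were those of Sphk1, a sphingosine kinase (-0.72 ± 0.22, adjusted p = 0.0816), and the adaptor Nck1 (-0.24 ± 0.08, adjusted p = 0.094). Among 21 measured coreceptors, phosphatases and modulators 2 were lower and 0 higher, with a median of -0.18. Itgb3, the beta-3 integrin subunit that pairs with VEGFR2, was 1.72-fold lower (-0.78 ± 0.13, adjusted p = 0.0167), without overlap and in all 10 fits that leave out 1 array, but with adjusted p = 0.0615 within slide 2. Thbs1, thrombospondin 1, which inhibits angiogenesis, was 2.94-fold lower (-1.56 ± 0.34, adjusted p = 0.0344), with overlapping groups and the call kept in 3 of the 10 fits (adjusted p up to 0.0778, at wild-type replicate 4). None of 10 measured genes of VEGF-C and VEGF-D maturation passed in limma, 2 at an unadjusted p under 0.05, with Plat at -0.54 ± 0.15 and Adamts2 at -0.45 ± 0.17 (adjusted p = 0.0621 and 0.129). Of 9 measured class 3 semaphorins and plexins, which share the neuropilins, Plxna2 was lower (-0.46 ± 0.10, adjusted p = 0.0356), a call kept in 1 of the 10 fits (adjusted p up to 0.0818, at wild-type replicate 4).

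Among 14 hypoxia factors and other known regulators of Vegfa, 1 was lower and 0 higher. Ppargc1a, the PGC-1alpha coactivator that raises Vegfa in muscle, read 3.88, 3.65, 3.26, 3.69 and 3.22 in knockout hearts, against 4.18, 4.15, 4.55, 4.12 and 4.83 in wild-type hearts. No knockout array reached the wild-type range, and the level was 1.77-fold lower (-0.82 ± 0.17, adjusted p = 0.0308), a call kept in 3 of the 10 fits that leave out 1 array (adjusted p up to 0.0634, at wild-type replicate 5) and lost within slide 2 (0.0561). Of 18 measured targets of hypoxia factors 0 passed in limma, 4 at an unadjusted p under 0.05, with a median of -0.07. The haem oxygenase Hmox1 had the smallest p among them (adjusted p = 0.0714), but was well above background on 1 knockout array, so that its fitted difference of -3.02 gives no exact size and was -1.13 with normexp correction. Next, the oxidase Ero1l gave -0.27 ± 0.08 (adjusted p = 0.0887). In the angiopoietin and TIE system 0 of 7 measured genes passed in limma, 1 at an unadjusted p under 0.05, with the TIE2 ligand Angpt1 at 1.18 ± 0.39 (adjusted p = 0.0991) and Angptl2 at 0.25 ± 0.14 (adjusted p = 0.26).

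Of 6 lymphatic endothelial markers 1 was higher and 1 lower in knockout. Ccl21a, a chemokine with near-identical copies in the genome so that its signal cannot be given to 1 copy, was 1.79-fold higher (0.84 ± 0.17, adjusted p = 0.0276). Pdpn, podoplanin, was 1.60-fold lower (-0.68 ± 0.13, adjusted p = 0.0208). Their calls were kept in 5 and 8 of the 10 fits (adjusted p up to 0.0648 for Ccl21a, at wild-type replicate 4, and 0.0538 for Pdpn, at wild-type replicate 5), and both missed the threshold within slide 2 (0.0607 and 0.0611). None of 6 pericyte genes passed in limma, 2 at an unadjusted p under 0.05, with Cspg4 at -0.48 ± 0.15 and Pdgfrb at -0.49 ± 0.16 (adjusted p = 0.0893 and 0.0926). None of 6 cardiomyocyte genes passed either, 5 at an unadjusted p under 0.05, with Myl2 at 0.68 ± 0.20 and Tnni3 at 0.47 ± 0.13 (adjusted p = 0.077 and 0.0704), the second turning to -0.025 with quantile normalization. No fibroblast, macrophage, fat or atrial marker passed, of 6, 9, 4 and 3 measured (2, 8, 3 and 1 at an unadjusted p under 0.05). The smallest p values there were those of Col1a1 (-0.77 ± 0.23), Pdgfra (-0.46 ± 0.19), Cd68 (-0.58 ± 0.17), Mrc1 (-0.38 ± 0.13), Car3 (-2.29 ± 0.76), Cidec (-1.73 ± 0.67), Myl4 (-1.98 ± 0.90) and Myl7 (-3.13 ± 1.63). With normexp correction 5 macrophage markers, 2 pericyte markers and 1 fibroblast marker passed as lower, and 3 cardiomyocyte markers as higher. Of all 30693 probes 1094 were lower and 3423 higher with it. When wild-type replicate 1 was left out, 2 of the 3 atrial markers passed as lower, where 635 of all probes did. Without knockout replicate 5, 1 fibroblast marker passed as lower, where 777 of all probes did. The part of these markers in the member results was not tested beyond the covariate fits given above.

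**Figure D5:**
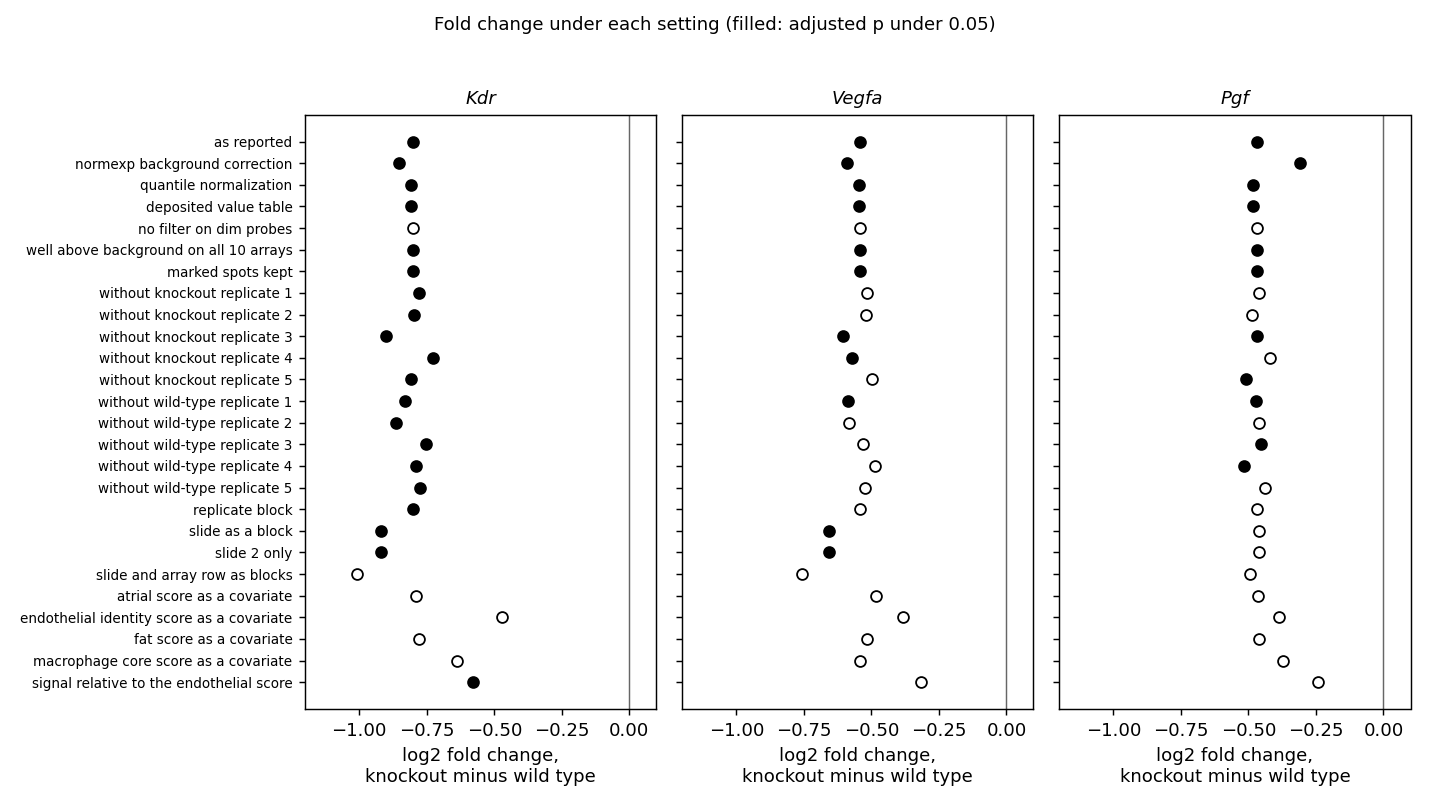
Log2 fold change, knockout minus wild type (x axis), of the called Kdr, Vegfa and Pgf probes under each of 25 alternative settings (rows) and as reported, filled where the adjusted p is under 0.05. All values lie below 0; 19 of 25 alternatives kept the call of Kdr, 10 that of Vegfa and 10 that of Pgf.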

How the data were processed

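Cardiac RNA of 5 HIPK2 knockout and 5 wild-type samples, grouped by their titles, was read on 1-colour arrays. Per the file headers, the authors' deposited files give linear spot intensity, from which Agilent Feature Extraction 10.7.1.1 (version per the submitters' processing notes) had taken background and spatial trend. A deposited value table, log2 per its values, matched its own arrays (r of 0.918 to 0.996 across 30693 probes) and was used as an alternative.

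Log2 of the processed intensity minus that of the 75th percentile over 59305 spots that are not controls was used. Outlier spots were dropped and spots of 1 probe averaged. RefSeq named 32994 probes and the array files the other 23611. The genotypes were contrasted by lmFit and eBayes of limma 3.58.1 under R 4.3.3, with no covariate and Benjamini-Hochberg adjustment over all 30693 probes. The fit was also run on simulated data with independent normal noise for each probe. Those data held no slide, array row or depth effect, so they do not check the fit against these. The number of arrays limits the precision.

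All members were named, Hipk2, and from each of 16 lists up to 4 genes past the threshold, otherwise 2 with the smallest p. The members and lists were chosen with earlier results of these data known. Exon and intron annotation of mm9 was not used here.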

Additional observations from a re-analysis of the deposited data

Results flagged for a closer look

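Within 136 groups of 5 arrays looked at (members and named list genes in each genotype), 1 held an array far from the other 4 by Dixon's criterion at 95%, and chance gives about 1 in 20 groups. The fat marker Car3 read 0.48 on wild-type replicate 2, against -3.56 to -2.41 on the other 4 wild-type arrays. No member probe was marked in either genotype.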

How the results depend on the processing

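Each alternative changed 1 choice, except that slide and array row were added together. Of all 30693 probes 1364 passed as reported and 1692 with quantile normalization. With normexp correction 4517 passed, and 220 with no filter on dim probes, 302 to 1224 when 1 array was left out, 522 within slide 2, 78 with the atrial mean, 4 with the endothelial mean and 1 with the fat mean as a covariate, and 7591 relative to the endothelial mean. With limma, 0 passed with slide and array row as blocks (3862 at an unadjusted p under 0.05) and 0 with the macrophage mean (4273). The slide with row, fat, macrophage and relative settings were chosen after seeing the data.

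Of 27 member probes 5 passed as reported, 12 with normexp, 8 with quantile normalization, 2 of 10 with 1 probe per gene, and 1 to 6 when 1 array was left out. Over all genes with 1 probe each, 1017 of 20607 passed. By limma 0 member probes passed with no filter (15 at an unadjusted p under 0.05), with slide and row (14), and with the atrial (14), endothelial (9), fat (12) or macrophage mean (10). At that unadjusted level 20471 of all 56605 probes passed with no filter. Of all 30693 probes 3862 did with slide and row, 5943 with the atrial, 6847 with the endothelial, 4457 with the fat and 4273 with the macrophage mean. Of 7 array measures 6 passed as reported, 0 within slide 2 and 0 to 6 when 1 array was left out, with 0 when that was knockout replicate 3 or 4 or wild-type replicate 2, 3, 4 or 5. Fewer arrays leave fewer arrangements, which limits how small p of the exact test can be.

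Replicate numbers did not pair the samples: correlations of same-numbered deviations were -0.10 to 0.06. With the replicate block 239 probes and 2 member probes passed (Kdr at 0.0441 and the called Nrp1 probe at 0.0441).

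Over the member probes 557 of 680 alternative values kept direction and side of the threshold, 64 lost a call, 23 gained one and 36 turned sign; the cause was not tested. With quantile normalization and the value table the dimmer Figf probe gave -0.032 in both, and Tnni3 -0.025 and -0.022. With normexp the thymus Nrp1 probe gave 0.041 and Flt4 0.092. With slide as a block and within slide 2, that Figf probe gave -0.061, that Nrp1 probe 0.0065 and the brightest Nrp2 probe 0.036. With slide and row, the Figf probes gave -0.32 and -0.87, the placenta Flt1 probe -0.20, the thymus Nrp1 probe 0.0015, the brightest Nrp2 probe 0.30 and Angptl2 -0.057. With the atrial mean the thymus Nrp1 probe gave 0.011 and Myl7 0.067, and with the fat mean that Nrp1 probe 0.028. With the endothelial mean the Vegfa core probe gave 0.026, the Vegfc splice-form probe -0.091, the brightest Nrp1 probe 0.038, its probe at the end of the RefSeq mRNA 0.20 and Cspg4 0.023. With the macrophage mean Flt4 gave 0.022, the thymus Nrp1 probe 0.16, the RefSeq-end probe 0.090 and Adamts2 0.010. Relative to the endothelial mean, the brighter probe of the other Flt1 transcript gave 0.092, Flt4 0.044, the thymus Nrp1 probe 0.21 and the RefSeq-end probe 0.057. When 1 array was left out, the dimmer Figf probe lay between -0.095 and 0.23 and the thymus Nrp1 probe between -0.089 and 0.043.

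Wide intervals, dim probes and the confounding of most wild-type arrays with array row limit what these 10 arrays can show.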
